A study of Mus musculus with 16 samples.

Results

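Ly6c2, F13a1, Cd36, Adgre1, Mertk, Mrc1, Cd68, Apoe and Gpnmb are 9 genes used to follow a monocyte from its circulating state to a mature macrophage. They were chosen by symbol from a table of 13085 genes, all 9 were listed, and each was read in 16 RNA-seq libraries of mouse monocytes. The study asked how the loss of NFAM1, a receptor of myeloid cells, changes monocyte activation. Its libraries form 8 groups of 2. Monocytes labelled NFAM1+/+ or NFAM1-/-, all of the C57BL/6 strain, were left unstimulated or were given IFN-γ and then MegaCD40L at 1 µg/mL, a multimeric form of the ligand of CD40, and RNA was taken after 6 or 24 h. The NFAM1-/- mice lack exons 2 and 3 of Nfam1 after Cas9 cutting in zygotes, in every cell of the animal. The labels call the cells PBL monocytes, while the methods describe isolation from bone marrow with an enrichment kit, and the labels and the methods give different doses of IFN-γ. The age of the mice is not given in the sources used here. The study names fewer mice than there are libraries, so that some libraries share an animal, without saying which. The fits below treat the libraries as independent, and p-values measure the spread between these libraries.

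Classical mouse monocytes carry the Ly6C antigen at high density and leave the bone marrow for blood and inflamed tissue. Once in tissue or in culture they can mature, which lowers transcripts of the circulating cell and raises receptors and enzymes for taking up dead cells and handling their lipid. IFN-γ makes monocytes and macrophages microbicidal and antigen presenting, and CD40 signals to NF-κB.

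A promoter window is shown for the 2 members used as monocyte markers, Ly6c2 and F13a1, and for Ly6c1, the near copy of Ly6c2. The transcripts of Ly6c2 and F13a1 moved in opposite directions with the stimulus. RefSeq windows of 300 bases, from 250 before to 50 after a transcription start on GRCm38.p6, were matched by symbol for 8 of the 9 members and gave 12 windows. Adgre1 had no window. Each sequence below is on the minus strand and reads 5′ to 3′, and capitals mark GAGGAAGT, the word searched for as a PU.1 site on both strands. PU.1 is the transcription factor that sets up the myeloid program.
Ly6c2, chr15:75111922-75112221: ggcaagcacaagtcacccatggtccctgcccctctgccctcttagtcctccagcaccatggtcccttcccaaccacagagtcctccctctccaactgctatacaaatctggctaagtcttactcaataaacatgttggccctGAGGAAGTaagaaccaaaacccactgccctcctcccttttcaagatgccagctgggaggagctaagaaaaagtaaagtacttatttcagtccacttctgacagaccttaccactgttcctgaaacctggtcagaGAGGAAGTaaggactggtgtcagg
Ly6c1, chr15:75048614-75048913: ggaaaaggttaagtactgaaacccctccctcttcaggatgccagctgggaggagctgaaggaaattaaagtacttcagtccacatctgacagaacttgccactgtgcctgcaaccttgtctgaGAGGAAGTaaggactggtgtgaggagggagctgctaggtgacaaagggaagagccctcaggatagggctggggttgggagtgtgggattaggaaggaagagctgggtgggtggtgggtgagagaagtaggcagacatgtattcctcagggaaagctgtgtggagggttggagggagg
F13a1, chr13:37049164-37049463: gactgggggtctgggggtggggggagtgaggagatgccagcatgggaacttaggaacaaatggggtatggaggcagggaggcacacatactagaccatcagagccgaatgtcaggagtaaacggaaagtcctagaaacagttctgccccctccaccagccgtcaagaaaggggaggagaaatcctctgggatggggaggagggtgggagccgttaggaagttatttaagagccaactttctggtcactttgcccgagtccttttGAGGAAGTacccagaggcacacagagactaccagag
The word was in 3 of the 12 windows of the members, both windows of Ly6c2 and 1 of the 2 of F13a1, and in 3.2% of all 32851 windows. It was also in 1 of the 2 windows of Ly6c1. Each window shown was picked as the first of its gene that holds the word, and no other member had it. In the Ly6c2 window it begins at positions -108 and 26 from the start, and in that of F13a1 at position 14. The word GAAANNGAAA, the core bound by interferon regulatory factors, was in none of the 12 windows, against 3.44% of all windows. CATGTG, which the MITF family can bind, was in 1 of the 12, a window of Mrc1, against 14.15% of all windows, and CACGTG was in none, against 7.15%. A match or its absence is a description of these letters only.

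The values are in counts-per-million (CPM) of a scaled library size, taken back from the deposited log2 scale, with 0.5 read added by the authors' method. Each library held 48295939 to 88514341 reads on the listed genes, so that counting error was small for the members except Mertk at 6 h without stimulus, Mrc1, and F13a1 after 24 h of stimulus. Nfam1, counted over its whole length with the undeleted exons, was lower in NFAM1-/- by -0.44 at 6 h without stimulus (adjusted p = 0.0514 by limma), where the genotypes did not overlap, and differed by -0.01 with it (adjusted p = 0.979), where they did. Its levels at 24 h were 463 and 495 CPM in libraries titled NFAM1+/+ and 441 and 391 CPM in those titled NFAM1-/- without stimulus, and 271 and 252 CPM against 201 and 223 CPM with it. The titles thus left no overlap in either condition at 24 h, while the genotypes of the tag overlapped in both. By the titles 45.4% of all genes also had no overlap at 24 h without stimulus and 48.2% with it. At 6 h the shares were 42.2% and 42.4%. With 2 libraries a genotype, these Nfam1 levels do not settle which label is right. For 4 of the 8 libraries of 24 h, 1 genotype stands in the title and the other in the genotype tag. The title is used below, and for the genotype differences of 24 h the values by the tag and without these libraries are given beside it. For stimulus and time both genotypes were averaged, so the disagreement does not touch the group means. The reads of a library over its scaled size came to 0.756 to 0.775 at 6 h without and 1.24 to 1.32 with the stimulus, and to 0.776 to 0.788 and 0.970 to 0.997 at 24 h. Scaling each library to its own reads instead moved the median of all genes at 6 h from -0.13 to -0.86 for the stimulus, and at 24 h from 0.01 to -0.33. The share of called genes that were higher then went from 48.1% to 21.9% at 6 h, from 43.9% to 30.4% at 24 h and, for 24 h against 6 h with the stimulus, from 49% to 69.3%.

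With the stimulus for 6 h, Ly6c2 and Mertk rose and F13a1, Cd36, Apoe and Gpnmb fell. A gene was called when it changed at least 2-fold with a Benjamini-Hochberg adjusted p under 0.05 in limma over all 12782 genes tested. These 6 of 9 members stand against 39.7% of all genes called in that comparison, the 2 that rose against 19.1% and the 4 that fell against 20.6%. The median log2 fold change over the 9 was -0.52, against -0.13 for all genes. After 24 h of stimulus only Ly6c2 was called higher, and F13a1, Cd36, Adgre1, Mrc1, Apoe and Gpnmb fell, which is 7 of 9 against 33.3% of all genes, with 14.6% of them higher and 18.7% lower. The median over the members was -2.78, against 0.01 for all genes. Every member passed the filter of 1 CPM in at least 2 libraries. Mertk stood below that level in all 4 unstimulated libraries of 6 h (0.200 to 0.961 CPM) and passed through the other groups. Mrc1 stood at 1.14 to 1.86 CPM in the same libraries, and at 0.00697 to 0.132 CPM after 24 h of stimulus.

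Between 6 and 24 h in culture a different but overlapping set of members was called. Without stimulus, Mertk, Mrc1, Cd68, Apoe and Gpnmb rose between 6 and 24 h and no member was called lower, so that 5 of 9 were called against 21% of all genes, 13.2% higher and 7.76% lower. The median over the members was 1.17, against 0.04 for all genes. With the stimulus, Mertk and Gpnmb rose and F13a1, Mrc1 and Apoe fell over the same interval, 5 of 9 against 33.7% of all genes, 16.5% higher and 17.2% lower. The median was then -0.49, against 0.04 for all genes. The response to the stimulus differed between the times for 7 members, each lower relative to its unstimulated level at 24 h than at 6 h, where 31.5% of all genes differed, 13.3% higher and 18.2% lower. By the adjusted p alone, with no minimum fold, 8 members passed for the stimulus at 6 h (78.3% of all genes), 8 at 24 h (74.8%), 7 for time without stimulus (64.4%), 8 for time with it (76.4%) and 8 for the difference between the responses (67.2%). These comparisons share libraries, and so are not independent of one another. In bulk RNA, fewer cells of a type and less RNA per cell cannot be told apart.

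**Figure D1:**
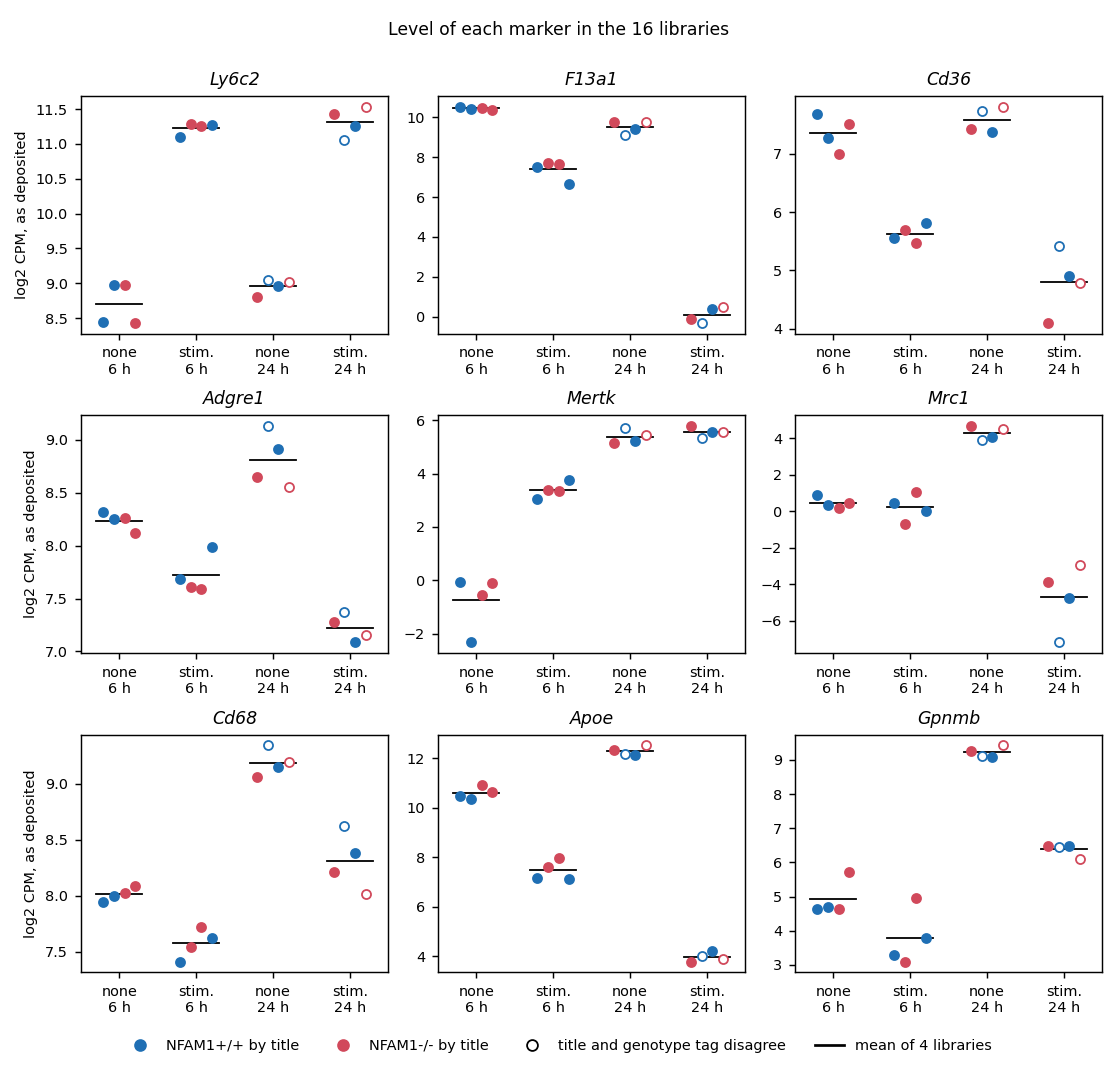
Deposited log2 CPM (vertical axis) of the 9 markers in each of 16 libraries, grouped by stimulus (none, or IFN-γ plus CD40L) and time, with colour for the genotype of the title, open points where title and genotype tag disagree, and a line at the mean of 4 libraries. Ly6c2 separates by stimulus at both times, while F13a1, Mrc1 and Apoe are lowest in the 4 libraries stimulated for 24 h.

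**Figure D2:**
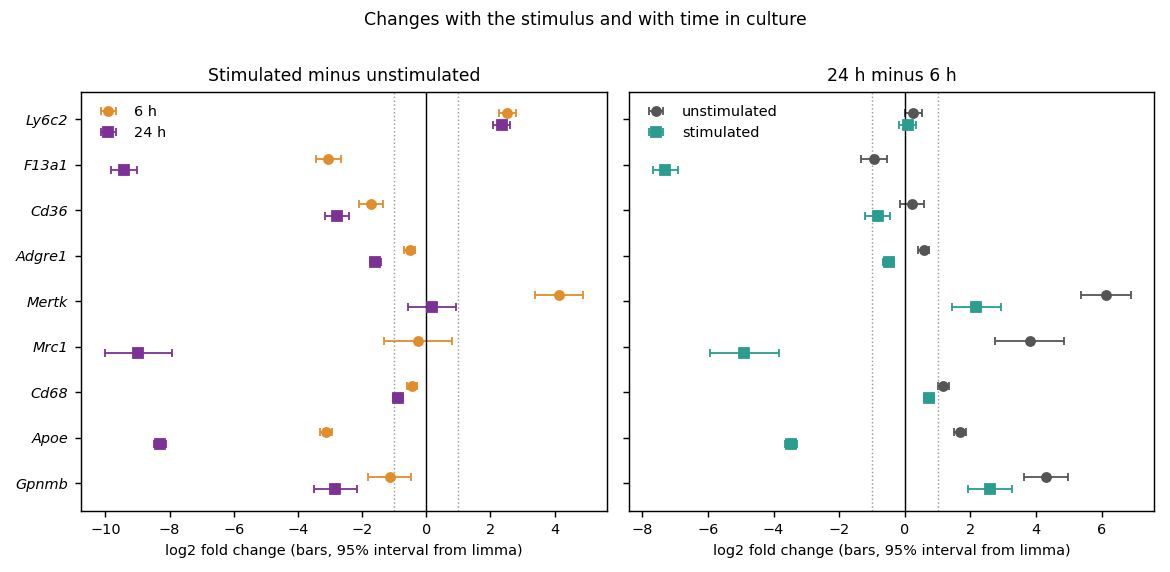
Log2 fold change (horizontal axis) of each marker with its 95% interval from limma, on the left for the stimulus at 6 h and 24 h and on the right for 24 h minus 6 h in unstimulated and stimulated cells, with dotted lines at a 2-fold change. F13a1 and Apoe fell at both times of stimulus, at -9.42 and -8.30 after 24 h, and Mertk rose by 6.13 with time without stimulus.

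Ly6c2 encodes a Ly6C antigen, a small protein anchored in the membrane by a lipid, and its gene ENSMUSG00000022584.14 is at 75108158 to 75111970 of chromosome 15 (GRCm38, minus strand). In all values below the pair of libraries titled NFAM1+/+ comes first and the pair titled NFAM1-/- second, and a single library is named by the number in its title. Ly6c2 stood at 347, 503, 501 and 345 CPM in unstimulated cells at 6 h and at 2461, 2199.7, 2505 and 2438 CPM in stimulated cells. At 24 h it stood at 530.2, 498, 446 and 520.4 CPM without stimulus and at 2125, 2445, 2754 and 2965 CPM with it. All stimulated libraries lay above all unstimulated ones at both times, and within each stimulus the times overlapped. The log2 fold change was 2.53 at 6 h (SE 0.12, adjusted p = 1.60e-10), or 5.76-fold, and 2.36 at 24 h (SE 0.12, adjusted p = 4.47e-10), or 5.13-fold. The difference between the responses was -0.17 (95% interval -0.54 to 0.21, adjusted p = 0.416), and it took the other sign with each library scaled to its own reads (0.23) or with quantile normalization (0.25).

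Ly6c1 was read apart from Ly6c2, although the reference transcripts Ly6c2-201 and Ly6c1-201 match at 97.6% of 822 aligned bases. Of the 722 stretches of 101 bases, the length of 1 read, in Ly6c2-201, 112 (15.5%) also occur in a Ly6c1 transcript, and how the authors counted reads that fit both genes is not given in the sources used here. Ly6c1 was at 1.23 to 2.75 CPM in unstimulated and 43.2 to 56.1 CPM in stimulated cells at 6 h, a log2 fold change of 4.62 (SE 0.21, adjusted p = 6.55e-11). Its highest level in any library was thus below the lowest of Ly6c2.

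F13a1 encodes the A subunit of coagulation factor XIII, a transglutaminase that monocytes and resident macrophages hold in the cytoplasm (chromosome 13, 36867178 to 37050244, minus strand, ENSMUSG00000039109.16). It was at 1485, 1390.3, 1403 and 1317 CPM in unstimulated cells at 6 h and at 101, 185, 212 and 203 CPM with the stimulus. At 24 h it was at 552, 679, 867 and 881 CPM without stimulus and at 0.801, 1.30, 0.911 and 1.39 CPM with it. The 4 groups did not overlap, and the 4 libraries stimulated for 24 h held only 57, 86, 60 and 110 reads. F13a1 fell by 3.05 on the log2 scale at 6 h (SE 0.18, adjusted p = 1.70e-09) and fell by 9.42 at 24 h (SE 0.18, adjusted p = 1.97e-14). The summed reads, corrected for library size, differed 682-fold at 24 h (95% Poisson interval 611 to 765, counting error only). Without stimulus the 24 h level was 0.93 lower on the log2 scale than the 6 h level (SE 0.18, adjusted p = 0.000524), just short of the 2-fold threshold, and it passed that threshold under quantile normalization (-1.09) and without the library 45 (-1.01).

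Cd36 encodes a scavenger receptor for oxidized lipoproteins and long-chain fatty acids (chromosome 5, 17781690 to 17888801, minus strand). In unstimulated cells it was at 204, 153, 128 and 182 CPM at 6 h and at 213, 165, 171 and 224 CPM at 24 h. Stimulated cells held 56.0, 46.9, 51.8 and 44.4 CPM at 6 h and 43.0, 29.9, 17.2 and 27.5 CPM at 24 h. The unstimulated groups overlapped with each other, and both lay above both stimulated groups. Cd36 fell by 1.73 at 6 h (SE 0.18, adjusted p = 5.16e-07) and fell by 2.78 at 24 h (SE 0.18, adjusted p = 3.59e-09). The response was larger at 24 h by -1.05 (SE 0.25, adjusted p = 0.00196), a value close to the 2-fold threshold. Without single libraries it ranged from -1.22 to -0.88, and it missed the threshold without the library 2, 3, 26, 11, 44, 46, 55 or 57. With each library scaled to its own reads it was -0.65, also short of the threshold.

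Adgre1 encodes F4/80, an adhesion G protein-coupled receptor that marks most mouse macrophages and is present at lower density on monocytes (chromosome 17, 57358691 to 57483527, plus strand). Its levels at 6 h were 319.8, 306, 306 and 277 CPM without and 254, 206, 195 and 192 CPM with the stimulus. By 24 h they were 561, 481, 400.1 and 375 CPM without and 166, 136, 156 and 142 CPM with it. The 4 groups did not overlap. The stimulus response was -0.52 at 6 h (SE 0.08, adjusted p = 3.55e-05), short of 2-fold, and -1.58 at 24 h (SE 0.08, adjusted p = 2.94e-10), a 3.00-fold fall. The 6 h value counted as a fall with libraries scaled to their own reads (-1.25) and with quantile normalization (-1.27). Relative to the median of all genes it was -0.39 both as deposited and on own reads, and -1.04 with quantile normalization. Over time without stimulus the level was 0.57 higher at 24 h (SE 0.08, adjusted p = 2.63e-05), also short of 2-fold. The response was larger at 24 h by -1.07 (SE 0.11, adjusted p = 1.66e-06), and this was -0.99 without the library 26 or 57, -0.67 with libraries scaled to their own reads and -0.75 with quantile normalization, each short of 2-fold.

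Cd68, a glycoprotein of the lysosomal membrane and a general marker of mononuclear phagocytes, lies on chromosome 11 (69664213 to 69666153, minus strand). It was at 246, 255, 260.2 and 272 CPM in unstimulated and 197, 170.4, 187 and 211 CPM in stimulated cells at 6 h. At 24 h it was at 648, 567, 533 and 585 CPM in unstimulated and 395, 333, 297 and 259 CPM in stimulated cells. Stimulated libraries were below unstimulated ones at each time, and those stimulated for 24 h overlapped with the unstimulated ones of 6 h. Cd68 rose with time without stimulus by 1.17 on the log2 scale (SE 0.08, adjusted p = 1.30e-08), or 2.25-fold. The stimulus response was -0.44 at 6 h (SE 0.08, adjusted p = 0.000105) and -0.88 at 24 h (SE 0.08, adjusted p = 1.08e-07), neither a 2-fold change. Scaling to each library's own reads took these to -1.17 and -1.21, past the threshold, and quantile normalization to -1.14 and -1.35. Relative to the median of all genes they were -0.31 and -0.88, both as deposited and on own reads. Under quantile normalization the relative values were -0.92 and -1.33.

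Mertk encodes a receptor tyrosine kinase that binds apoptotic cells through Gas6 and protein S (chromosome 2, 128698956 to 128802894, plus strand). It was close to the detection limit in unstimulated cells at 6 h, at 0.961, 0.200, 0.692 and 0.940 CPM, which are 108, 12, 79 and 107 reads. Stimulated cells of 6 h held 13.5, 8.23, 10.3 and 10.2 CPM. At 24 h the levels were 51.8, 37.6, 35.3 and 43.6 CPM without and 40.4, 46.8, 55.1 and 46.7 CPM with the stimulus. Mertk thus stood in 3 separate ranges, and the stimulated and unstimulated libraries of 24 h overlapped. It rose with the stimulus at 6 h by 4.13 (SE 0.35, adjusted p = 7.30e-08) and with time without stimulus by 6.13 (SE 0.35, adjusted p = 3.72e-09). At 24 h the stimulus response was 0.17 (95% interval -0.58 to 0.93, adjusted p = 0.664), and it was -0.16 when each library was scaled to its own reads. The difference between the responses was -3.95 (SE 0.49, adjusted p = 8.20e-06).

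Mrc1 encodes the mannose receptor CD206, an endocytic lectin of resident and alternatively activated macrophages (chromosome 2, 14229392 to 14332057, plus strand). At 6 h it was at 1.86, 1.29, 1.14 and 1.39 CPM without and 1.03, 1.37, 0.623 and 2.09 CPM with the stimulus. Unstimulated cells reached 14.99, 16.98, 25.6 and 22.7 CPM at 24 h. The 4 libraries stimulated for 24 h held 0, 2, 4 and 10 reads, against 1227 to 2208 in the unstimulated ones. The 6 h groups overlapped, and those of 24 h lay far above and far below them. Mrc1 rose with time without stimulus by 3.81 (SE 0.49, adjusted p = 1.18e-05) and fell with time in stimulated cells by 4.90 (SE 0.49, adjusted p = 4.89e-07). At 24 h the fitted stimulus response of -8.97 (SE 0.49, adjusted p = 7.07e-10) rests on the added 0.5 read, and the ratio of summed reads was 360-fold (95% Poisson interval 222 to 630, counting error only). The fall of 4.90 with time in stimulated cells rests on that added read too. Its ratio of summed reads was 21.9-fold (95% Poisson interval 13.3 to 38.9, counting error only).

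Apoe encodes the apolipoprotein with which macrophages export cholesterol (chromosome 7, 19696109 to 19699188, minus strand). It was at 1442, 1317, 1913 and 1597 CPM in unstimulated cells at 6 h and at 141, 143, 193 and 253 CPM with the stimulus. At 24 h it was at 4559, 4536, 5219.7 and 5882 CPM without stimulus and at 16.2, 18.8, 13.9 and 15.1 CPM with it. No 2 groups overlapped, and the level moved upward with time in unstimulated and downward in stimulated cells. Apoe fell by 3.13 with the stimulus at 6 h (SE 0.09, adjusted p = 2.93e-13) and fell by 8.30 at 24 h (SE 0.09, adjusted p = 2.55e-16), an 8.76-fold and a 316-fold change. The adjusted p at 24 h was the smallest of any gene in that comparison. Over time Apoe rose by 1.69 without stimulus (SE 0.09, adjusted p = 1.21e-09) and fell by 3.48 with it (SE 0.09, adjusted p = 1.06e-12).

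Gpnmb encodes a transmembrane glycoprotein of lysosomes and the cell surface found on lipid-laden macrophages (chromosome 6, 49036546 to 49070929, plus strand). At 6 h it was at 24.8, 26.1, 25.1 and 52.4 CPM in unstimulated and 13.9, 9.75, 8.57 and 31.2 CPM in stimulated cells. At 24 h it was at 552, 546, 613 and 687 CPM in unstimulated and 87.9, 89.1, 89.3 and 68.8 CPM in stimulated cells. The groups of 6 h overlapped through the stimulated library 12 at 31.2 CPM, and those of 24 h were apart from them and from each other. Gpnmb rose with time in both states, by 4.30 without stimulus (SE 0.31, adjusted p = 4.00e-08) and by 2.59 with it (SE 0.31, adjusted p = 3.20e-06). With the stimulus it fell by 1.14 at 6 h (SE 0.31, adjusted p = 0.00396), a call that was lost at -0.87 without the library 4, at -0.67 without the library 11 and at -0.97 with libraries centred on their medians. At 24 h it fell by 2.84 (SE 0.31, adjusted p = 1.31e-06).

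Levels were compared between members per kilobase of the exons annotated in GENCODE vM21. All annotated exons of a gene were merged, which gave 2740 bases for Ly6c2, while its transcript Ly6c2-201 has 822 bases. The order between members depends on this choice of length, and other lengths were not tried. In unstimulated cells at 6 h Apoe led at 733 ± 120.4 CPM per kilobase (SD, n = 4), followed by F13a1 at 208 ± 10.2 and Cd68 at 206 ± 8.75, whose libraries overlapped, then by Ly6c2, Adgre1 and Cd36, with Gpnmb at 4.93 ± 2.08. Mrc1 and Mertk were last and overlapped. In cells stimulated for 6 h Ly6c2 led at 876 ± 50.02 CPM per kilobase, ahead of Cd68 at 152 ± 13.5, while Apoe and Adgre1 overlapped behind them. By 24 h without stimulus Apoe stood at 2362 ± 299 CPM per kilobase and Cd68 at 464 ± 38.6, and the neighbours Ly6c2, Adgre1, F13a1 and Gpnmb each overlapped with the next. After 24 h of stimulus Ly6c2 was at 939 ± 134 and Cd68 at 255 ± 46.0 CPM per kilobase, and F13a1 and Mrc1 had moved to the bottom of the order at 0.162 ± 0.0426 and 0.00847 ± 0.00843.

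Lists of related genes were read in the same fit. Their counts stand against the shares of all genes called in each comparison. At 6 h of stimulus 19.1% of all genes were higher and 20.6% lower, and at 24 h 14.6% and 18.7%. For time in unstimulated cells the shares were 13.2% and 7.76%. Of 10 other markers of classical monocytes, 4 were called higher and 5 lower with the stimulus at 6 h (median -0.99), 4 higher and 6 lower at 24 h (median -1.67), and 1 higher and 6 lower with time in unstimulated cells (median -1.14). Ly6c1 was among those that rose at 6 h. Fn1, which encodes fibronectin, fell by 3.12 (SE 0.12, adjusted p = 9.67e-12) and Vcan, which encodes the proteoglycan versican, fell by 2.69 (SE 0.14, adjusted p = 4.22e-10). In unstimulated cells Vcan fell by 3.27 with time. Of 7 markers of nonclassical monocytes, 1 was called higher and 5 lower at 6 h of stimulus (median -1.38), and the same numbers at 24 h (median -1.49). Itgal, an integrin chain, rose by 1.21 at 6 h (SE 0.08), the chemokine receptor gene Cx3cr1 fell by 4.19 (SE 0.12) and Nr4a1, the nuclear receptor on which nonclassical monocytes depend, fell by 2.47 (SE 0.13). Without stimulus 3 of the 7 fell with time, among them Spn at -1.93 and Ace at -1.38, and the median was -0.90.

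Of 15 further genes of macrophage maturation, 12 were tested, and 8 of these were called higher and 3 lower with the stimulus at 6 h, with a median of 2.28. At 24 h of stimulus 2 were higher and 3 lower, with a median of 0.31. With time in unstimulated cells 9 were called higher and 1 lower, with a median of 1.99. C1qb, a chain of the complement component C1q, rose both with the stimulus at 6 h by 4.72 (SE 0.18) and with time by 3.91 (SE 0.18), from 3.57 to 4.39 CPM in unstimulated cells of 6 h. Fcgr1, the high-affinity IgG receptor, rose with the stimulus by 4.47 (SE 0.13). Cd163, the receptor for haptoglobin bound to hemoglobin, fell by 2.80 (SE 0.43) with the stimulus at 6 h. Marco, a scavenger receptor, rose with time in unstimulated cells by 4.41 (SE 0.60), from 0.0393 to 0.161 CPM up to 0.547 to 4.30 CPM. Vsig4, Lyve1 and Folr2 were not analysed here.

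The 12 tested genes of apoptotic cell uptake split evenly at 6 h of stimulus, with 4 called higher and 4 lower (median 0.23), and at 24 h of stimulus 1 was higher and 7 lower (median -1.94). Axl, a receptor kinase of the same family as Mertk, rose by 3.25 at 6 h (SE 0.14, adjusted p = 4.58e-11), while Itgb5, an integrin chain, fell by 3.17 (SE 0.13, adjusted p = 2.68e-11). Timd4, a receptor for phosphatidylserine, rose at 6 h of stimulus from 0.109 to 0.518 CPM up to 2.92 to 6.31 CPM, and in unstimulated cells fell with time by 2.36 (SE 0.42). Gas6, the ligand of Mertk and Axl, fell by 1.96 at 6 h of stimulus (SE 0.38) and rose by 2.63 with time without it (SE 0.38), at no more than 4.52 CPM in these groups. With time in unstimulated cells 5 genes of the list were called higher, among them Stab1, a scavenger receptor, by 2.19 (SE 0.16), and 1 lower, with a median of 0.42.

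Among 12 genes of lipid handling, 1 was called higher and 6 lower at 6 h of stimulus (median -0.93), and 1 higher and 8 lower at 24 h (median -1.69). Abcg1, a cholesterol exporter, rose by 2.68 at 6 h (SE 0.09), and Fabp4, a fatty acid binding protein, fell by 4.85 (SE 0.87), from 4.84 to 9.98 CPM down to 0.235 to 0.337 CPM. Cd9, a tetraspanin, fell by 2.49 (SE 0.14). Without stimulus 5 rose with time and 1 fell (median 0.86), led by Fabp5 at 3.85 (SE 0.12) and Trem2, a lipid-sensing receptor, at 1.88 (SE 0.13), with Lpl, which encodes lipoprotein lipase, falling by 1.10 (SE 0.09). Of 14 regulators of monocyte and macrophage genes, 2 were called higher and 5 lower at 6 h of stimulus (median -0.04). Those counts stand against 19.1% higher and 20.6% lower among all genes. Klf4 rose by 2.97 (SE 0.09) and Maf by 2.81 (SE 0.16), and Pparg, a nuclear receptor for fatty acids that has Cd36 among its known targets, fell by 4.66 (SE 0.27, adjusted p = 1.19e-09), from 33.2 to 39.0 CPM down to 0.847 to 2.14 CPM. At 24 h of stimulus 3 of the 14 were higher and 5 lower (median -0.45). With time in unstimulated cells 4 of them rose and 1 fell (median 0.19), with Maf at 2.35 (SE 0.16) and Cebpb at -1.54 (SE 0.11).

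**Figure D3:**
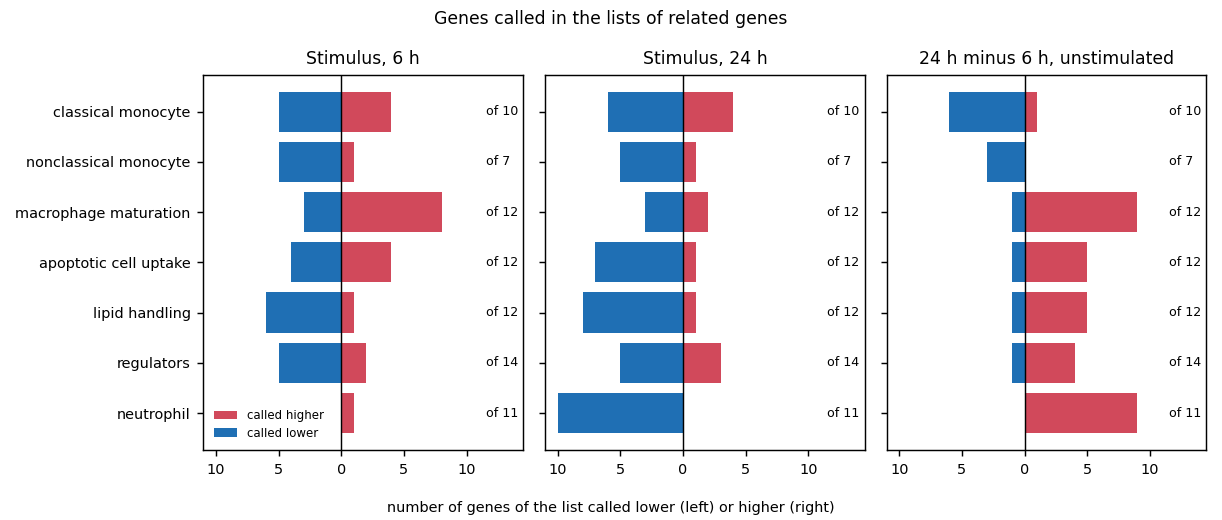
Number of genes of each list called higher (right, red) or lower (left, blue) in 3 comparisons, with the number tested at the right of each row. With time in unstimulated cells 9 of 12 genes of macrophage maturation and 9 of 11 neutrophil genes were called higher, and at 24 h of stimulus 10 of 11 neutrophil genes were called lower. Over all genes 13.2% were called higher with time in unstimulated cells and 18.7% lower at 24 h of stimulus.

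Markers of other cell types moved with the same conditions. Among all genes, 19.1% were called higher and 20.6% lower at 6 h of stimulus, and 14.6% and 18.7% at 24 h. For time in unstimulated cells these shares were 13.2% and 7.76%. The 11 neutrophil genes summed to 73.7 to 233 CPM in unstimulated cells at 6 h and to 569 to 985.3 CPM at 24 h, where 9 of 11 were called higher, and to 129 to 223 CPM in cells stimulated for 24 h, where 10 of 11 were called lower than without stimulus. At 6 h of stimulus the sum was 88.7 to 364 CPM, with 1 gene called higher. The medians of the list were 2.19 for time without stimulus, -2.03 for the stimulus at 24 h and 0.63 at 6 h. Classical monocyte genes summed to between 25234 and 28268 CPM in all unstimulated libraries and to between 6927 and 11779 CPM in stimulated ones. Over all libraries the summed levels were 34.5 to 371 CPM for 3 B cell genes, 0.540 to 6.79 CPM for 2 T cell genes, 32.8 to 194 CPM for 6 dendritic cell genes, 0.854 to 43.2 CPM for 4 erythroid genes and 8.66 to 152 CPM for 5 mast cell and basophil genes, with the highest values of the B cell, erythroid and mast cell sums among the libraries stimulated for 6 h. Among the defining genes, Ms4a1, Cd3e, Cd3g, Nkg7, Klrb1c, Ncr1 and Klf1 were not analysed here. The 2 T cell genes were Cd4 and Cd8a, from a list of 7 genes of T and NK cells. Alone they do not identify T cells. With time in unstimulated cells 1 of 3 B cell genes, 2 of 2 T cell genes and 4 of 6 dendritic cell genes were called higher, 1 dendritic cell gene was lower, and no erythroid or mast cell gene was called. At 24 h of stimulus all 3 B cell genes, all 4 erythroid genes and 1 of 2 T cell genes were called lower, 2 dendritic cell genes were higher and 2 lower, and Kit of the mast cell list was higher. At 6 h of stimulus 3 of 4 erythroid genes, 3 of 6 dendritic cell genes, 1 of 2 T cell genes, 1 of 3 B cell genes and again Kit were called higher, and 1 dendritic cell and 1 B cell gene lower. The part of these cells in the changes of the 9 members was not tested.

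No member was called between the genotypes, whether as fitted above or under any of the 13 alternatives that keep all libraries or leave out those of disagreeing labels. At 6 h without stimulus this was 0 of 9, against 0.0861% of all genes called by limma and 1289 genes at an unadjusted p under 0.05, and Apoe alone among the members reached that unadjusted level. Apoe was higher in NFAM1-/- by 0.34 (95% interval 0.08 to 0.60, adjusted p = 0.344). With the stimulus at 6 h 0 of 9 were called against 0% of all genes, with 1862 genes at an unadjusted p under 0.05. Apoe was then higher by 0.64 (95% interval 0.38 to 0.90, adjusted p = 0.111) and F13a1 by 0.60 (95% interval 0.05 to 1.16, adjusted p = 0.308), or 1.04 and called without the library 10. Mertk differed by 0.88 without stimulus (95% interval -0.19 to 1.94, adjusted p = 0.613), a value that was 2.01 and called without the library 1 and -0.25 without the library 2. Both NFAM1-/- libraries of 6 h lay above both NFAM1+/+ ones for Apoe with and without the stimulus. The same held for Cd68 without stimulus and for F13a1 with it, while for Adgre1 with the stimulus they lay below. In all, 2 members had no overlap between genotypes without stimulus and 3 with it, where 42.2% and 42.4% of all genes had none.

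The response to the stimulus at 6 h was compared between the genotypes as well. No member was called, 0% of all genes were, and 1090 genes had an unadjusted p under 0.05. The difference of the responses ran from -0.92 for Mertk (95% interval -2.42 to 0.59, adjusted p = 0.712) to 0.68 for F13a1 (95% interval -0.11 to 1.48, adjusted p = 0.610). For Ly6c2 it was 0.09 (95% interval -0.44 to 0.62, adjusted p = 0.931), an interval that still includes a change of 1.5-fold.

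At 24 h the values depend on which label is read. By the titles 0 of 9 members were called without stimulus, against 0.289% of all genes and 1397 genes at an unadjusted p under 0.05, and 0 of 9 with it, against 0.579% and 1988 genes. Adgre1 was lower in NFAM1-/- without stimulus by -0.42 (adjusted p = 0.116) and Apoe higher by 0.29 (adjusted p = 0.401). With the stimulus Mrc1 was higher by 2.55 (adjusted p = 0.0740) on 16 reads in all, or by 3.76 and called without the library 57, and Cd36, Cd68 and Apoe were lower by -0.72 (adjusted p = 0.161), -0.39 (adjusted p = 0.0793) and -0.27 (adjusted p = 0.291). By the genotype tag the same differences were 0.16 for Adgre1 and -0.08 for Apoe without stimulus, and -1.69 for Mrc1, -0.08 for Cd36, 0.22 for Cd68 and -0.16 for Apoe with it, with every adjusted p above 0.99. Without the 4 libraries, which leaves 1 library a group at 24 h, they were -0.27 for Adgre1 and 0.20 for Apoe without stimulus, and 0.85 for Mrc1, -0.80 for Cd36, -0.16 for Cd68 and -0.44 for Apoe with it, where the lone library is assumed to vary like those of the other groups. The lowest of these adjusted p was 0.723, for Cd36. Titles left 5 members without overlap in each condition, where 45.4% and 48.2% of all genes had none. Over all genes, the titles gave 37 called genes without and 74 with the stimulus, the tag 2 and 3, and the fit without the 4 libraries 4 and 14.

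**Figure D4:**
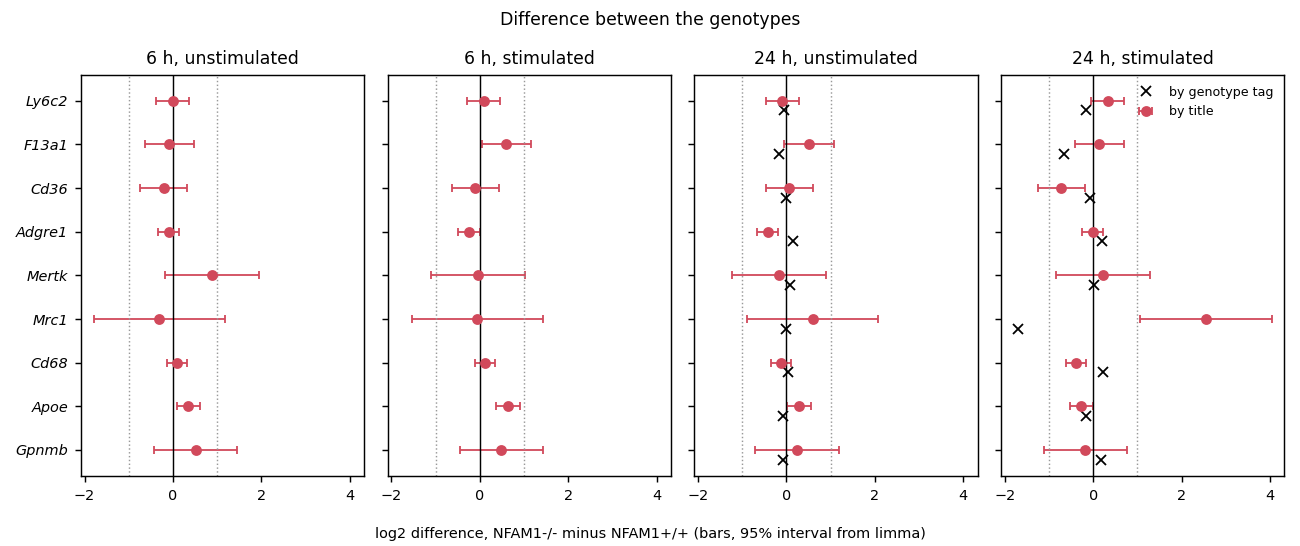
Log2 difference between NFAM1-/- and NFAM1+/+ (horizontal axis) of each marker by the titles, with 95% intervals from limma, in 4 conditions, and by the genotype tag as crosses at 24 h, with dotted lines at a 2-fold difference. Mrc1 in cells stimulated for 24 h lies at 2.55 by the titles and at -1.69 by the tag.

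Genes whose log2 CPM followed a member most closely over the 16 libraries were read as a description, since the libraries share stimulus and time. F13a1 was closest to Fn1 (Pearson r 0.998) and Ccl9 (0.992), and Fn1 also belongs to the classical monocyte list. Ly6c2 was closest to B2m, the light chain of class I molecules (0.992), and AW112010 (0.992). Apoe was closest to Maml3 (0.997) and Cox6b2 (0.993), Cd36 to Lgmn (0.983) and Nol4l (0.983), and Adgre1 to Zfp36l1 (0.977) and Ucp2 (0.971). Mertk was closest to Tbc1d9 (0.975) and Rragc (0.973), and Mrc1 to Tbc1d5 (0.977) and Cyp27a1 (0.971). Cd68 and Gpnmb shared Rab3gap2 (0.975 and 0.979) among their closest genes, beside Trpv4 (0.976) for Cd68.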

How the data were processed

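Monocyte RNA was sequenced from polyadenylated, non-stranded libraries with paired reads of 101 bases. Per the labels and methods, the authors used FastQC, STAR, Rsubread, edgeR and limma, and the labels name GRCm39. The deposited values are log2 CPM of 13085 genes, 17 of them with symbols turned into dates and 1 symbol standing in 2 rows. From the log2 values whole reads were recovered for 100% of values of up to 1000 reads (tolerance 0.05). The log2 values were fitted with limma 3.58.1 in R 4.3.3, with a trended prior, over 16 libraries and 8 groups (8 residual degrees of freedom). Genes with 1 CPM in at least 2 libraries entered, which left out 303. The main fit kept the deposited log2 unit, and no count model was fitted, although whole reads were recovered. An alternative weighted the recovered reads with voom of limma. The 9 members, the lists of related genes and of other cell types, and the alternatives were chosen with earlier results of these data known. Named list genes are the up to 2 with the largest called rise and fall, for the stimulus at 6 h and for time without stimulus, of which some are not reported here. The fit was tested on simulated reads for the stimulus at 6 and 24 h, their difference and the genotype at 6 h with the stimulus. Positions, exon lengths and transcripts are from GENCODE vM21 and promoters from RefSeq, both on GRCm38, not the build of the labels.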

Additional observations from a re-analysis of the deposited data

Results flagged for a closer look

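The response of 8 members to IFN-γ plus CD40L differed between 6 and 24 h by the interaction test of limma, with an adjusted p under 0.05. The difference, 24 h minus 6 h on the log2 scale, was -6.36 for F13a1, -1.05 for Cd36, -1.07 for Adgre1, -3.95 for Mertk, -8.71 for Mrc1, -0.44 for Cd68, -5.17 for Apoe and -1.70 for Gpnmb. For Cd68 it was -0.0405 with libraries scaled to their own reads and -0.21 with quantile normalization, and the adjusted p then missed the threshold. For Mertk the lower value at 24 h came with an unstimulated level that had risen 70.0-fold since 6 h. Gpnmb had a library apart from the other 3 in 2 of its groups. Among unstimulated cells at 6 h the library 4, at 52.4 CPM against 24.8 to 26.1, left a gap of 0.932 of the group's range, and among cells stimulated for 24 h the library 58, at 68.8 CPM against 87.9 to 89.3, left a gap of 0.939. Both gaps passed the 95% critical value of Dixon's test, 36 groups of 4 libraries were tested, and chance flags about 1 in 20.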

How the results depend on the processing

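No paired analysis was possible because the groups share no library numbers and the labels do not say which libraries came from the same mouse, although some must share one. Counting, among genotype differences, only Mertk at 6 h without stimulus and those with an unadjusted p under 0.05, of 654 fold changes of members under 13 alternatives 630 kept direction and side of the threshold, and of 880 without single libraries, 862 did. Of those counted, the ones that took the other sign were, with libraries scaled to their own reads, Mertk for the stimulus at 24 h (-0.16) and Ly6c2 for the difference between the times (0.23, and 0.25 with quantile normalization), with centring on medians Ly6c2 for time in stimulated cells (-0.0856), and by the genotype tag at 24 h Adgre1 (0.16) and Apoe (-0.0825) without stimulus and Mrc1 (-1.69) and Cd68 (0.22) with it. Without single libraries, Mrc1 at 6 h of stimulus ranged from -0.70 to 0.18, and the genotype difference of Mertk at 6 h without stimulus from -0.25, without the library 2, to 2.01, without the library 1, where it was called. With no minimum fold change 8 members passed for time in stimulated cells in place of 5. The number of members called between genotypes ranged from 0 to 1 at 6 h without stimulus, from 0 to 1 at 6 h with it (F13a1 at 1.04 without the library 10) and from 0 to 1 at 24 h with it (Mrc1 at 3.76 without the library 57). Without the 4 libraries of disagreeing labels, Gpnmb's response no longer differed between the times (-1.56, adjusted p = 0.0587). The causes were not tested. With 2 libraries a group the spread between libraries limits precision more than depth does, except for Mrc1.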
